A study of Mus musculus with 38 samples.

Results

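The genotype by anle138b interaction of the pre-plaque group is the difference between 2 genotype effects on hippocampal RNA, that of APPPS1ΔE9 against WT mice given anle138b minus that of APPPS1ΔE9 against WT mice given placebo. It was measured in the 16 mice that were 6 months old, out of 38 mice in the series, and the members were all libraries of this age by their titles. There were 4 WT mice on placebo, 4 APPPS1ΔE9 mice on placebo, 4 WT mice on anle138b and 4 APPPS1ΔE9 mice on anle138b, all labelled as C57BL/6. The other 22 mice were 10 months old and had received the chow only after plaques had formed. The question put to these data was which groups of genes differed between the genotypes under placebo and no longer under early anle138b, and whether the amount of choroid plexus in the sample, read from Ttr, moved with that difference.

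APPPS1ΔE9 mice carry transgenes for mutant human amyloid precursor protein and a mutant presenilin, driven by the mouse prion protein promoter, and they deposit amyloid β as plaques with age. Anle138b is a diphenyl pyrazole that binds protein aggregates and was given in the chow. The hippocampus was taken as whole tissue, so a level is a sum over neurons, astrocytes, oligodendrocytes, microglia, vessels and any attached choroid plexus or ventricle wall. In such bulk samples, fewer cells of a type and less RNA per cell cannot be told apart.

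The respiratory chain of mitochondria makes most of the ATP of a neuron. Its complexes I to IV pass electrons to oxygen and complex V, the ATP synthase, uses the resulting proton gradient; most subunits are encoded in the nucleus and a few in mitochondrial DNA. Astrocytes supply neurons with lactate, clear glutamate and are joined by connexins. Microglia are the resident phagocytes of the brain, and around plaques they switch from a homeostatic to a plaque-associated programme in which Trem2, Apoe and lysosomal genes take part. The choroid plexus is an epithelium in the ventricles that secretes cerebrospinal fluid and, with it, very large amounts of transthyretin, the product of Ttr.

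The libraries held between 17764531 and 31895808 reads counted on genes, with a median of 24614457, and between 23507 and 25420 genes with at least 1 read. Levels are given as CPM, the reads of a gene scaled by TMM to a common library size. The transgene check fitted the titles. App was at 1790, 1610, 1670 and 1720 CPM in the WT mice on placebo and at 3820, 4260, 3860 and 4300 CPM in the APPPS1ΔE9 mice on placebo. Under anle138b it was at 1710, 1650, 1720 and 1720 CPM in WT and at 4010, 3740, 3260 and 3940 CPM in APPPS1ΔE9 mice. The label for genotype of the WT mice on placebo names the transgenic line, against their titles, and their App level was that of the other WT mice. The interaction of App was -0.12 (log2, SE 0.09). Prnp and the pseudogene Lamr1-ps1, which lies beside Prnp, separated the genotypes under both chows in the same way, and Lamr1-ps1 was at 11.4 to 17.2 CPM in the 4 APPPS1ΔE9 mice on placebo and at 10.8 to 17.4 CPM in the 4 on anle138b, against 0 in 7 of the 8 WT mice and 0.0571 CPM in the other.

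Several features of the libraries moved with the groups. Ttr was at 3710, 7190, 5900 and 138 CPM in the WT mice on placebo (numbered 30, 31, 37 and 77) and at 6250, 31.9, 648 and 147 CPM in the APPPS1ΔE9 mice on placebo (17, 71, 74 and 75). In the mice on anle138b it was at 7460, 6620, 6270 and 207 CPM in WT (33, 39, 41 and 83) and at 6480, 5710, 7090 and 123 CPM in APPPS1ΔE9 mice (15, 16, 27 and 84). Thus 3 of 4 mice in each of the other groups but 1 of 4 in the placebo APPPS1ΔE9 group, mouse 17, had a high Ttr level, of 3710 CPM or more, and the first principal component, with 28.6% of the variance, separated the mice by it. All mice with a high Ttr level were numbered 15 to 41 and all others 71 to 84. Ttr level and mouse number, whatever the number stands for, therefore cannot be told apart. WT mouse 39 on anle138b stood apart on the second component (15.5%), with the lowest total and the most genes detected, and its mean level over 14 cell cycle genes was 3.13 (log2 CPM) against 0.34 to 0.66 in the other 15 mice. The 5 WT mice 30, 31, 77, 33 and 83 had Xist above 1000 CPM and almost no Y-linked reads, whereas the other 11 mice, all APPPS1ΔE9 mice among them, showed the opposite. By these reads the 5 were females, 30, 31 and 77 in the placebo WT group and 33 and 83 in the anle138b WT group. The study's methods state that only male mice were used. All placebo WT libraries were run in lane 4, all placebo APPPS1ΔE9 libraries in lane 5 and all anle138b APPPS1ΔE9 libraries in lane 6, and the anle138b WT libraries in lanes 4 and 5. The interaction and the lane cannot be told apart.

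No gene passed the interaction test at an adjusted p under 0.1 (0 of 17404 genes, edgeR's quasi-likelihood test with Benjamini-Hochberg adjustment), and 1390 genes, or 7.99%, had an unadjusted p under 0.05. Of these, 799 (4.59% of the genes tested) had a positive interaction, which means that APPPS1ΔE9 stood higher against WT under anle138b than under placebo, and 591 (3.4%) a negative one. DESeq2 on the same counts called 22 genes at its adjusted p under 0.1, 13 of them positive, and divided its unadjusted calls into 644 positive and 681 negative. The split was not stable: with RLE size factors in edgeR it was 693 to 696, with offsets for transcript length and GC content 604 to 626 and in a fit over all 38 mice 424 to 769. Single mice turned it too, to 742 and 865 without WT mouse 83 on anle138b and to 805 and 810 without APPPS1ΔE9 mouse 75 on placebo. In what follows a single gene or list is described at the unadjusted threshold, counts in a list stand against the 4.59% of positive and 3.4% of negative calls over all tested genes, and no gene is called changed by the interaction.

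The genotype effects behind the interaction were computed from separate mice. Under placebo 35 genes (0.201%) passed the adjusted threshold of edgeR's quasi-likelihood test and 2234 (12.8%) the unadjusted one; under anle138b these were 6 genes (0.0345%) and 1140 (6.55%). In fits of each chow on its own, the genotype log2 fold changes of 16642 genes had a Pearson correlation of 0.11 and a Spearman correlation of 0.046 between the chows, across genes, which are not independent. Of the genes with an unadjusted p under 0.05 under placebo, 1290 of 2231 (57.8%; App, Prnp and Lamr1-ps1 set aside) had the same sign under anle138b, and their median size was 0.21 (log2) where they were chosen and 0.016 in that direction under anle138b. The mirror choice gave nearly the same picture, with 626 of 1137 genes (55.1%) of the same sign and median sizes of 0.30 and 0.022. Sizes in the set of mice where genes were chosen are inflated by that choice, so the drop from one chow to the other has no test here.

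A gene was said to lose its genotype effect when the effect had an unadjusted p under 0.05 under placebo and not under anle138b, and the interaction had an unadjusted p under 0.05 with the opposite sign. By this rule 735 genes (4.22% of those tested) lost it, 432 of which had been lower and 303 higher in the placebo APPPS1ΔE9 mice. The mirror rule, no effect under placebo and one under anle138b, was met by 272 genes (1.56%), 103 lower and 169 higher in APPPS1ΔE9 mice on anle138b. A further 159 genes had an effect under both chows, 111 with the same sign and 48 with opposite signs. The loss count was decided in part by single mice: it was 1146 without mouse 17, 362 without mouse 71 and 449 without WT mouse 31. The gain count was 505, 475 and 460 without mice 83, 41 and 84, and 164 without mouse 16.

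**Figure D1:**
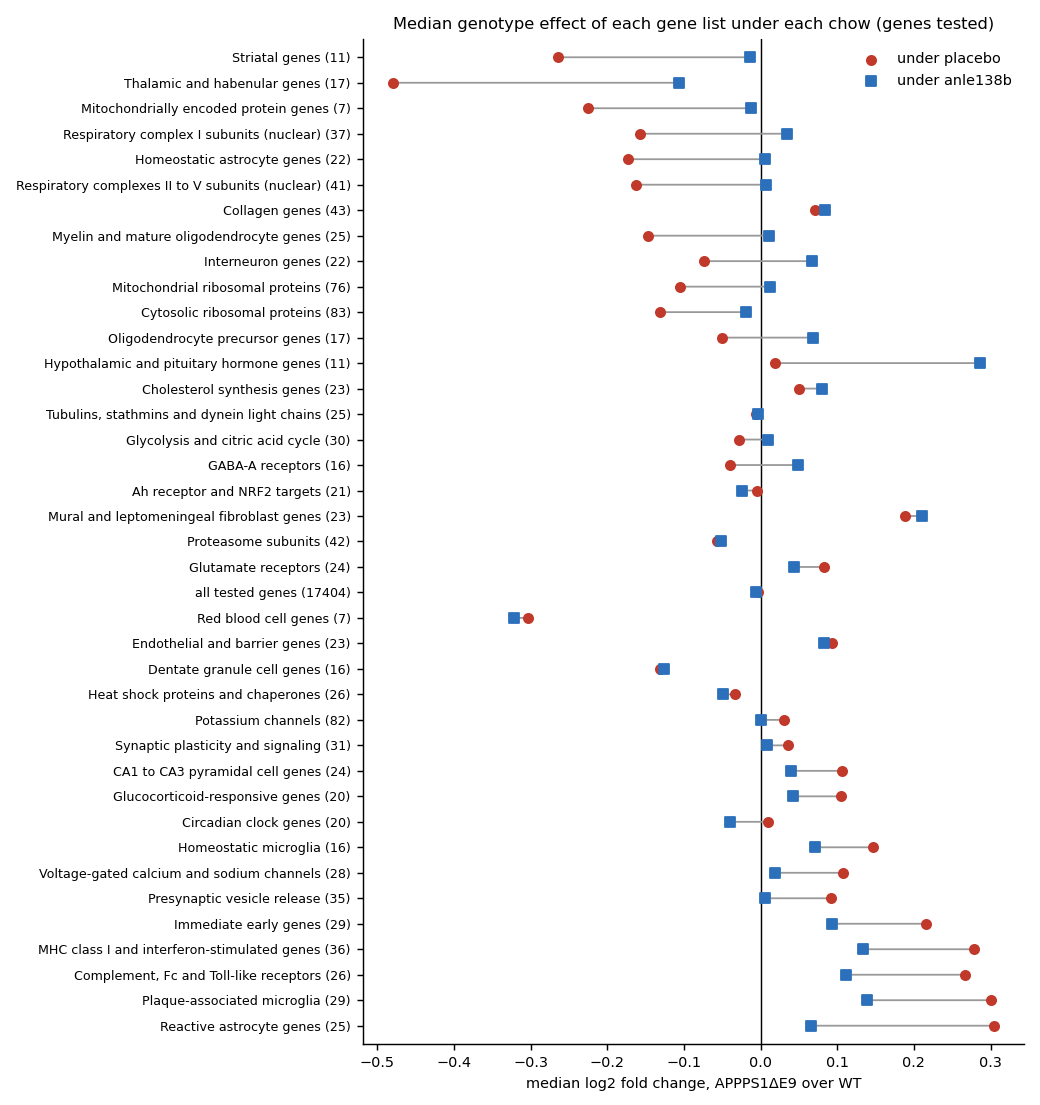
Each row is a gene list with the number of its genes tested. The x axis gives the median log2 fold change of APPPS1ΔE9 over WT under placebo (circles) and under anle138b (squares), and the rows are ordered by the median interaction. Complex I subunits lie at -0.16 under placebo and 0.035 under anle138b, and plaque-associated microglial genes at 0.30 and 0.14; choroid plexus genes, at -1.22 and -0.16, and the lists added later are left out to keep the scale.

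Among the lists, the nuclear subunits of the respiratory chain held the most losses in number. Of 78 subunits tested, 44 were lower in the placebo APPPS1ΔE9 mice at an unadjusted p under 0.05 and 0 were higher, where 7.06% of all genes were lower. Under anle138b 0 were lower and 7 were higher, where 3.05% of all genes were lower and 3.5% higher. The interaction was positive in 75 of 78 and reached an unadjusted p under 0.05 in 40, or 51.3% of the subunits against 4.59% of all genes, and 29 (37.2% against 4.22%) met the rule for loss. Their median interaction was 0.19 (log2), beside -0.0018 over all tested genes. Complex I, which takes electrons from NADH, and complexes II to V gave like values, with medians of 0.21 over 37 and 0.17 over 41 genes and 20 genes each past the unadjusted threshold.

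A few members show the level of the effect and the sequence before the gene. The 250 bases upstream of the RefSeq start (GRCm38.p6) are given 5′ to 3′ on the strand of the gene, since nuclear respiratory genes are known targets of NRF1 and of ETS factors, and a match to either motif is in capitals.
Ndufa11: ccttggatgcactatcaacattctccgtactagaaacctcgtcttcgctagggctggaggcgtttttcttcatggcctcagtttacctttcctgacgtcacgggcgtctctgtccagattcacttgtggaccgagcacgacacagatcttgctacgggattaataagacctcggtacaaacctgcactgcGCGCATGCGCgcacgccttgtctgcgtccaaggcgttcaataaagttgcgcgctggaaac
Atp5e: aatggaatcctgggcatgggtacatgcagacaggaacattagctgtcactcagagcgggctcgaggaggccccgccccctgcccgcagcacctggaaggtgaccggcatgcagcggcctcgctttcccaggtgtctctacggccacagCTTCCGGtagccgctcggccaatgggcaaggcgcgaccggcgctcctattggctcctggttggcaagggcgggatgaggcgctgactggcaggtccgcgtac
Cox8a: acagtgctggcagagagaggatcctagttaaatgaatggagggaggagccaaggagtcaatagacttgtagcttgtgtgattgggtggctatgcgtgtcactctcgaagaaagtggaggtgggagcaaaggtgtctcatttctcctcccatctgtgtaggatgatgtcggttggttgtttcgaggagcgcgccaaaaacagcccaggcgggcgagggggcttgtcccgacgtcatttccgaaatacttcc
Ndufa11 (chr17:56717512-56717761, plus strand) holds 1 match to the NRF1 motif, a palindrome of which the letters in capitals are 1 form, Atp5e (chr2:174464102-174464351, minus strand) holds 1 match to the ETS motif CCGGAAG on the opposite strand, and Cox8a (chr19:7217617-7217866, minus strand) holds neither. The search took both strands and the first listed start of each gene. It found the NRF1 motif before 12 of the 64 matched subunits (18.8%) and 920 of 12517 tested genes (7.35%), and the ETS motif before 11 subunits (17.2%) and 1502 genes (12%). Within the subunits the NRF1 motif stood before 7 of 34 past the unadjusted interaction threshold (20.6%) and 5 of 30 that were not (16.7%). A match is a run of letters and no measured binding site.

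Cox8a (chr19:7215153-7217616) encodes a small subunit of cytochrome c oxidase, complex IV. It was at 248, 237, 233 and 244 CPM in WT and at 210, 196, 218 and 224 CPM in APPPS1ΔE9 mice on placebo. Under anle138b it was at 232, 229, 234 and 230 CPM in WT and at 237, 246, 253 and 242 CPM in APPPS1ΔE9 mice. The placebo genotypes did not overlap, with APPPS1ΔE9 lower, and neither did the anle138b genotypes, with APPPS1ΔE9 higher. The interaction was 0.26 (log2, SE 0.06).

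Ndufa13 (chr8:69894180-69902558), a complex I subunit also known as GRIM-19, was at 99.3 to 119 CPM in WT and at 96.5, 87.9, 103 and 103 CPM in APPPS1ΔE9 mice on placebo. On anle138b the WT values were 103, 102, 101 and 101 CPM and the APPPS1ΔE9 values 120, 117, 124 and 103 CPM. The placebo genotypes overlapped here. The anle138b ones did not overlap before rounding, with APPPS1ΔE9 higher, although the nearest values both round to 103 CPM. Its genotype effect had an unadjusted p under 0.05 under both chows, at -0.19 (SE 0.07) and 0.19 (SE 0.07), so Ndufa13 was not among the losses although its interaction was 0.38 (SE 0.09). Ndufa2 of complex I was at 73.3, 78.3, 73.5 and 75.7 CPM in WT and 62.8, 57.7, 65.2 and 69.8 CPM in APPPS1ΔE9 mice on placebo, and at 74.4, 69.2, 72 and 71.9 CPM against 75.4, 76.6, 82 and 72.3 CPM on anle138b, with an interaction of 0.33 (SE 0.08). Uqcr10, a small subunit of complex III, was past the adjusted threshold in the placebo genotype effect, which was -0.27 (SE 0.05; adjusted p = 0.0796, edgeR's quasi-likelihood test). It was 106 ± 5.6 CPM in WT and 88.0 ± 6.3 CPM in APPPS1ΔE9 mice on placebo and 99.7 ± 4.0 against 100 ± 2.5 CPM on anle138b (SD, n = 4 each). Atp5e, the epsilon subunit of ATP synthase, and Ndufa11 of complex I had interactions of 0.33 (SE 0.09) and 0.31 (SE 0.08).

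Over all 78 subunits the mean log2 CPM of a mouse lay between 6.28 and 6.40 in WT and between 6.04 and 6.24 in APPPS1ΔE9 mice on placebo. It lay between 6.27 and 6.33 in WT and between 6.28 and 6.36 in APPPS1ΔE9 mice on anle138b. The placebo APPPS1ΔE9 group was therefore below each of the other 12 mice, with mouse 71 lowest at 6.04. Mouse 17, whose choroid plexus genes were high, was at 6.21, beside 6.20 and 6.24 in mice 74 and 75, whose choroid plexus genes were low. Within lane 5, the 4 placebo APPPS1ΔE9 mice were below WT mice 41 (6.33) and 83 (6.31), which were on anle138b.

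**Figure D2:**
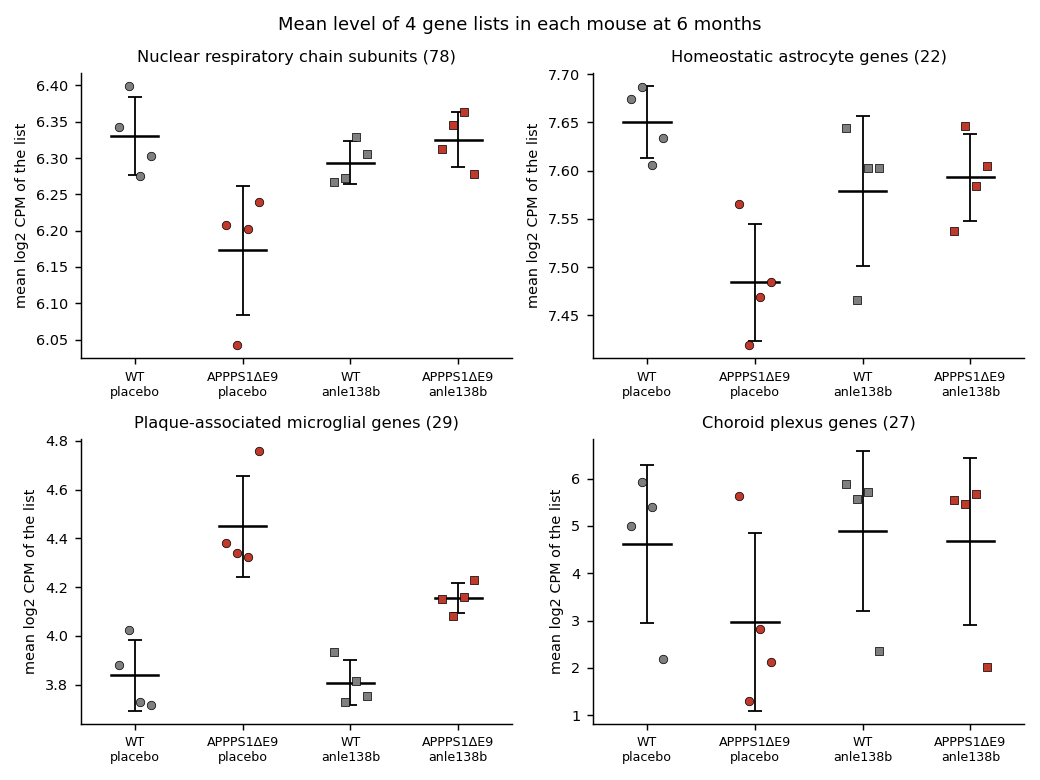
Each point is 1 mouse, with the mean log2 CPM of a gene list on the y axis and the 4 groups on the x axis (grey WT, red APPPS1ΔE9; circles placebo, squares anle138b); the line is the group mean and the bars 1 SD (n = 4), and the y axes do not start at 0. The placebo APPPS1ΔE9 mice are lowest for the respiratory subunits (6.04 to 6.24) and highest for plaque-associated microglial genes (4.32 to 4.76), and each group has at least 1 mouse with a low choroid plexus level.

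The subunits encoded in mitochondrial DNA were read in 7 of 13 genes that passed the filter on low counts. All 7 were lower in placebo APPPS1ΔE9 mice at an unadjusted p under 0.05, with a median of -0.23 (log2), and none differed at that threshold under anle138b, where the median was -0.013. The median interaction was 0.23, yet 1 of the 7 reached the unadjusted threshold. It was mt-Nd6, a complex I subunit, at 1280, 1390, 1450 and 1420 CPM in WT and 1170, 1020, 1250 and 1320 CPM in APPPS1ΔE9 mice on placebo, and at 1420, 1360, 1480 and 1340 CPM against 1190, 1550, 1740 and 1630 CPM on anle138b. Mouse 15 was below all 4 WT mice there, and the other 3 above. With 1 mouse left out, the positive calls among the 7 ran from 0 to 7 and the median from 0.17 to 0.30. Both were highest without mouse 15.

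Genes for the machinery that makes proteins followed with smaller values. Of 83 cytosolic ribosomal protein genes, 26 were lower under placebo at an unadjusted p under 0.05 (7.06% of all genes were) and 0 higher. The median interaction was 0.12, 17 (20.5% against 4.59% of all genes) reached a positive unadjusted call, and 13 (15.7% against 4.22%) met the rule for loss. With 1 mouse left out, the positive calls among cytosolic ribosomal proteins ran from 7 to 20 and the losses from 3 to 17, both being lowest without mouse 71 and highest without mouse 75. Rps20 of the small subunit had an interaction of 0.31 (SE 0.09). Ribosomal protein genes have many processed copies, and the counting may have divided reads among them. Of 76 mitochondrial ribosomal protein genes, 11 (14.5%) had a positive unadjusted call and 0 a negative one, with a median of 0.13 and 7 to 13 positive calls when 1 mouse was left out, and Mrpl36 had 0.40 (SE 0.11). In contrast, 2 of 30 genes of glycolysis and the citric acid cycle had such a call, Mdh1, a malate dehydrogenase, at 0.23 (SE 0.08) and Suclg1, and 1 of 42 proteasome subunits.

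These lists consist of short transcripts, and the interaction varied with transcript length over the whole data. Its median was 0.085 in 1226 genes of up to 1000 nucleotides and fell step by step to -0.066 in 2258 genes over 6000 nucleotides, and 9.54% of the shortest genes against 1.37% of the longest had a positive unadjusted call. The respiratory subunits, with median lengths of 1046 and 1129 nucleotides, stood above the short genes (0.19 beside 0.085 and 0.070 in the shortest classes). With offsets that level length and GC content, which also take out any such difference that is biological, their median interaction was 0.096, 16 of 78 (beside 3.48% of all genes) had a positive unadjusted call and 13 met the rule for loss. Cytosolic ribosomal proteins then had a median of 0.028 with 4 positive and 2 negative calls, and mitochondrial ones 0.055 with 10 and 0. What set this length trend was not tested.

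**Figure D3:**
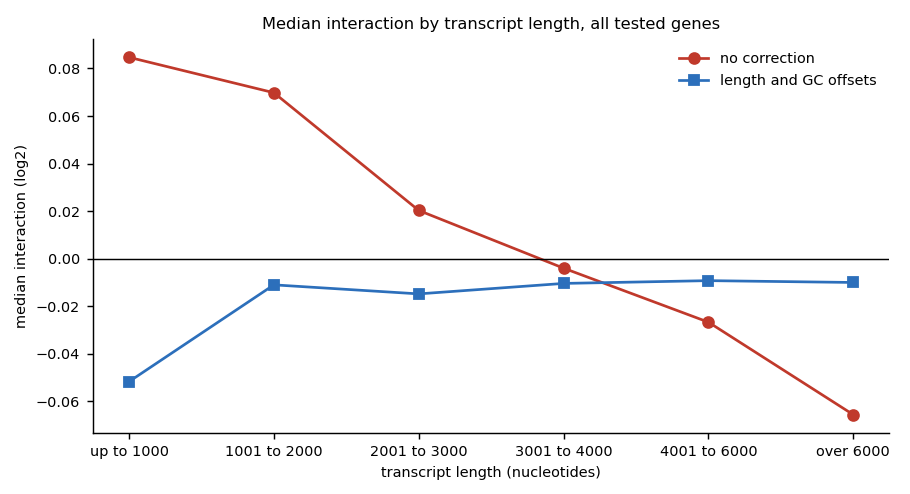
The y axis gives the median interaction (log2) of all tested genes in 6 classes of transcript length on the x axis, without correction (circles) and with offsets for length and GC content (squares). Without correction the median goes from 0.085 in the shortest to -0.066 in the longest class; with offsets it lies between -0.015 and -0.0092 in all but the shortest class, where it is -0.052.

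Homeostatic astrocyte genes also shared 1 sign, and their transcripts were of ordinary length (median 3385 nucleotides against 3181 for all genes). All 22 had a positive interaction, with a median of 0.18, and 8 (36.4% against 4.59% of all genes) had an unadjusted p under 0.05. Under placebo 11 of 22 were lower in APPPS1ΔE9 mice at that threshold and 0 were higher, and under anle138b 0 were in either direction; 6 met the rule for loss. The median log2 fold change of anle138b over placebo was -0.075 in WT and 0.090 in APPPS1ΔE9 mice, so part of the interaction came from WT mice. With length and GC offsets the median interaction was 0.18 and 8 were called. WT mouse 39, the library that stood apart, was the lowest of the anle138b mice for this list (7.47 on the log2 scale), and without it 5 were called and the median was 0.14. Without mouse 84 only 2 were called, with a median of 0.15.

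Gja1 (chr10:56377330-56402513), which encodes the astrocyte connexin 43, was at 245, 301, 245 and 270 CPM in WT and at 242, 218, 222 and 215 CPM in APPPS1ΔE9 mice on placebo. On anle138b it was at 254, 221, 262 and 251 CPM in WT and at 258, 271, 268 and 271 CPM in APPPS1ΔE9 mice. Its genotype effect was -0.24 (SE 0.07) under placebo and 0.11 (SE 0.07) under anle138b, and its interaction 0.36 (SE 0.09). Slc1a3, the glutamate transporter GLAST, had 0.19 (SE 0.07).

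The gene with the smallest interaction p of all was Tril (chr6:53815468-53820830), a TLR4 co-receptor expressed in astrocytes. It was at 39.3, 40.8, 39.4 and 40.9 CPM in WT and at 33.5, 35.3, 34.7 and 34.5 CPM in APPPS1ΔE9 mice on placebo, with no overlap. Under anle138b the WT mice were at 34.2, 35.2, 36.3 and 39.2 CPM and the APPPS1ΔE9 mice at 39.7, 40.1, 39.4 and 38.1 CPM. The interaction was 0.33 (log2, SE 0.07; adjusted p = 0.52 by edgeR's quasi-likelihood test), and part of it came from the WT mice, which were lower on anle138b than on placebo. Grm3 and Gabrg1, a glutamate and a GABA-A receptor subunit found in astrocytes as well as neurons, were also lower in placebo APPPS1ΔE9 mice. Grm3 was 52.2 ± 2.2 CPM in WT and 43.6 ± 1.4 CPM in APPPS1ΔE9 mice on placebo and 49.2 ± 3.4 against 50.5 ± 0.70 CPM on anle138b (SD, n = 4 each), an interaction of 0.30 (SE 0.07), and Gabrg1 had 0.53 (SE 0.13). DESeq2 put Tril, Grm3 and Gabrg1 past its adjusted threshold.

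Genes of the oligodendrocyte lineage gave medians of the same sign with fewer calls. In 25 myelin genes the median genotype effect was -0.15 under placebo, with 9 lower and 0 higher at the unadjusted threshold (7.06% of all genes were lower), and 0.010 under anle138b. Of these 25, 3 (12% against 4.59% of all genes) had a positive interaction call, and 1 to 5 had one when 1 mouse was left out. One of them was Car2, carbonic anhydrase 2, at 267, 277, 262 and 281 CPM in WT and 244, 200, 242 and 199 CPM in APPPS1ΔE9 mice on placebo. On anle138b it was 252 ± 16 against 254 ± 7.5 CPM (SD, n = 4 each), and its interaction was 0.31 (SE 0.09). Of 17 precursor genes 2 had a positive call, among them Cspg5, a chondroitin sulfate proteoglycan, at 0.24 (SE 0.06). Part of these medians came from WT mice, which were lower on anle138b than on placebo. The median log2 fold change of anle138b over placebo was -0.096 in WT and 0.083 in APPPS1ΔE9 mice for myelin genes. For precursor genes it was -0.096 and 0.082.

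Plaque-associated microglial genes went the other way, with a median genotype effect that was smaller under anle138b but still positive. Of 29 genes, 15 were higher in placebo APPPS1ΔE9 mice at an unadjusted p under 0.05 (5.78% of all genes were) and 7 in APPPS1ΔE9 mice on anle138b (3.5%), 0 being lower in either. The median fold change was 0.30 and 0.14 on the log2 scale, the median interaction was -0.26, and 5 (17.2% against 3.4% of all genes) had a negative and 1 a positive unadjusted call. The mean log2 CPM of the list was 4.32 to 4.76 in placebo and 4.08 to 4.23 in anle138b-treated APPPS1ΔE9 mice, against 3.72 to 4.02 in the 8 WT mice. The groups of APPPS1ΔE9 mice did not overlap, and both were above all WT mice. Mouse 75, the highest of the placebo group at 4.76, held 1 end of this range, and the median interaction was -0.16 without it. With 1 mouse left out, the negative calls in this list ran from 4 to 10.

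Mpeg1 (chr19:12460779-12465283), the pore-forming protein perforin-2 of phagocytes, was at 32.4, 32.2, 33.9 and 32.3 CPM in WT and at 49.4, 55.1, 49.7 and 70.2 CPM in APPPS1ΔE9 mice on placebo. On anle138b it was at 36.3, 32.9, 37.8 and 36 CPM in WT and at 40.0, 33.7, 38.4 and 52.9 CPM in APPPS1ΔE9 mice, which overlapped. Its genotype effect was past the adjusted threshold under placebo (0.78, SE 0.12; adjusted p = 0.0229, edgeR's quasi-likelihood test), and the interaction was -0.57 (SE 0.17). The chemokine gene Ccl6 gave 1.08 (SE 0.18) under placebo and 0.32 (SE 0.18) under anle138b. Cd52, a leukocyte surface protein, was at 1.99, 2, 1.97 and 2.93 CPM in the placebo APPPS1ΔE9 mice and between 0.784 and 1.67 CPM in each of the other 12 mice, with an interaction of -0.98 (SE 0.31).

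Trem2, the lipid-sensing receptor of plaque-associated microglia, kept a genotype effect of 0.30 (SE 0.14) under anle138b beside 0.71 (SE 0.14) under placebo, with an interaction of -0.41 (SE 0.19). That call was retained in 4 of the 16 fits that left out 1 mouse. Apoe was the positive call of this list: it was 1350 ± 180 CPM in WT and 1220 ± 64 CPM in APPPS1ΔE9 mice on placebo and 1220 ± 90 against 1450 ± 120 CPM on anle138b (SD, n = 4 each), an interaction of 0.39 (SE 0.12). Most Apoe RNA of the brain comes from astrocytes. The fractalkine receptor Cx3cr1, which marks homeostatic microglia, had -0.25 (SE 0.12), and 2 of 16 homeostatic genes had a negative call. In the 16 fits that left out 1 mouse, the call of Cx3cr1 was retained in 5. The homeostatic list had 0 to 3 negative calls in them.

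Complement and antigen presentation genes had positive median genotype effects under placebo and few interaction calls. In 26 complement, Fc and Toll-like receptor genes the median genotype effect was 0.27 under placebo and 0.11 under anle138b, with 9 and 2 higher at the unadjusted threshold (5.78% and 3.5% of all genes were), and 2 negative interaction calls, C4b and Tlr7. C4b (chr17:34728380-34743882), complement component 4, was at 41.5, 41.9, 46.2 and 34.9 CPM in WT and at 51.6, 89.7, 72.3 and 107 CPM in APPPS1ΔE9 mice on placebo. On anle138b it was at 37.5, 33.3, 32.1 and 38.7 CPM in WT and at 36.7, 42.0, 38 and 48.3 CPM in APPPS1ΔE9 mice. The placebo genotypes were apart and the anle138b genotypes overlapped, with an interaction of -0.74 (SE 0.25). Without mouse 17, the lowest of the placebo APPPS1ΔE9 mice, C4b was among the 22 genes past the adjusted threshold (log2 value -0.91). Of 36 MHC class I and interferon-stimulated genes, 12 were higher under placebo and 1 under anle138b, yet 0 had an interaction call, so a difference between the chows was not shown for them.

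**Figure D4:**
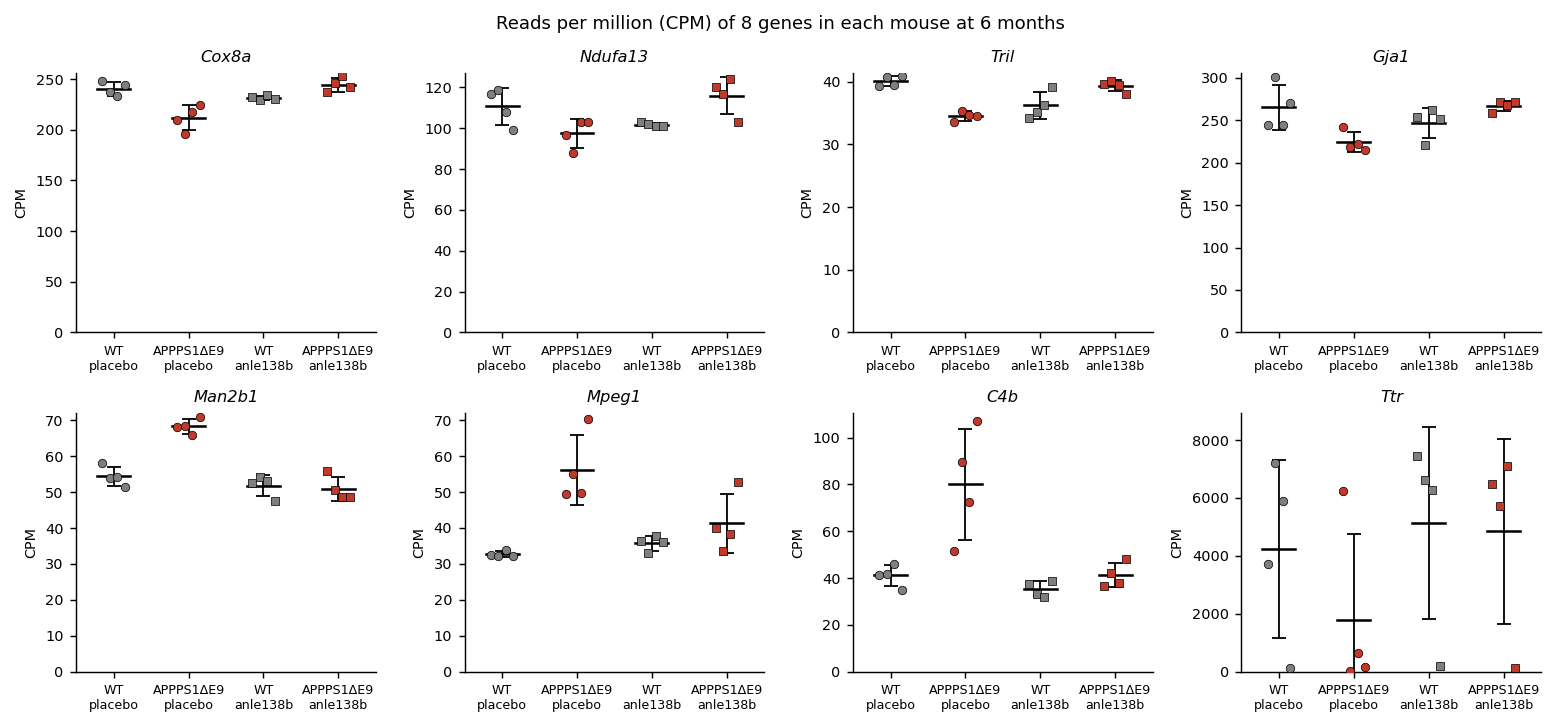
Each point is the CPM of 1 mouse (y axis, from 0) in the 4 groups on the x axis (grey WT, red APPPS1ΔE9; circles placebo, squares anle138b), with the group mean and 1 SD (n = 4), bars reaching below 0 being cut at the axis. Cox8a, Ndufa13, Tril and Gja1 are lowest on average in the placebo APPPS1ΔE9 mice and Man2b1, Mpeg1 and C4b highest, while Ttr takes values between 31.9 and 7460 CPM, with 3 low mice among the placebo APPPS1ΔE9 mice and 1 in each other group.

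Single genes outside these lists had the smallest interaction p on the negative side. Man2b1 (chr8:85083270-85098282), lysosomal alpha-mannosidase, was at 58, 53.9, 54.3 and 51.4 CPM in WT and at 68.2, 68.4, 65.9 and 71 CPM in APPPS1ΔE9 mice on placebo, and at 52.6, 54.3, 53 and 47.5 CPM against 55.8, 50.7, 48.6 and 48.6 CPM on anle138b. The placebo APPPS1ΔE9 mice were above all others. Its genotype effect was 0.33 (SE 0.06; adjusted p = 0.0299) under placebo and -0.026 (SE 0.06) under anle138b, and it was lower on anle138b than on placebo within APPPS1ΔE9 mice (adjusted p = 0.00367, edgeR's quasi-likelihood test). That treatment comparison had 3 genes past the adjusted threshold (0.0172%), all lower on anle138b.

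The other two were Pisd-ps1 and Pisd-ps2, transcribed copies of the phosphatidylserine decarboxylase gene. Pisd-ps1 was at 168, 162, 160 and 164 CPM in WT and at 188, 214, 173 and 161 CPM in APPPS1ΔE9 mice on placebo, and at 144, 131, 152 and 159 CPM against 113, 120, 135 and 117 CPM on anle138b. Both genotypes were lower on anle138b and the APPPS1ΔE9 mice the more so, with interactions of -0.44 (SE 0.11) and -0.48 (SE 0.11) for the pair. The copies resemble each other, and reads that fit both cannot be assigned. Phka2, a phosphorylase kinase subunit on chromosome X, had -0.51 (SE 0.12), and its level in the placebo APPPS1ΔE9 mice, 38.8 to 48.3 CPM, was above that of all others. Gmeb1, Rnf111, Adamts14, Gm37928, Cybrd1 and Cpne7 completed the 10 negative genes, with values from -1.03 to -0.29.

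On the positive side Tril was followed by Rnd2, Smdt1, 9130401M01Rik, Tlcd1, Cartpt, Cox8a, Ndufa2, Ssna1 and Ndufa13. Smdt1, also called EMRE, is an essential part of the calcium uniporter of mitochondria. It was at 80.1, 76.1, 76.0 and 79.3 CPM in WT and at 68.6, 66.0, 70.6 and 72.1 CPM in APPPS1ΔE9 mice on placebo. On anle138b it was at 75.4, 73.4, 71.1 and 74.3 CPM in WT and at 79.2, 78.4, 83.7 and 76.7 CPM in APPPS1ΔE9 mice. The genotypes were apart under both chows, in opposite directions, and the interaction was 0.28 (SE 0.06). Rnd2, a small GTPase of neurons, and Tlcd1, a membrane lipid regulator, were past the adjusted threshold in the placebo genotype effect (-0.21, SE 0.04, and -0.40, SE 0.08; adjusted p = 0.0878 and 0.0796 by edgeR's quasi-likelihood test). The largest value belonged to Cartpt, a neuropeptide precursor at 0.893 to 3.24 CPM, with 1.76 (SE 0.42).

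Neuronal lists varied in their calls. Of 35 presynaptic release genes 3 (8.57% against 3.4% of all genes) had a negative call, Unc13b (-0.31, SE 0.09), Pclo (-0.24, SE 0.10) and Rims1 (-0.19, SE 0.09), which encode large scaffolds of the vesicle release site. Rims1 was retained in 4 and Pclo in 9 of the 16 fits that left out 1 mouse, and the list had between 1 and 8 negative calls in them. Of 82 potassium channel genes 4 had a positive and 3 a negative call, shares of 4.88% and 3.66% beside 4.59% and 3.4% of all genes. Of 28 voltage-gated calcium and sodium channels 2 were negative, Cacna1d and Cacna1e, of 24 glutamate receptors 3 were positive and 2 negative, and of 31 plasticity genes 1 was positive and 2 were negative. Among 22 interneuron genes 4 (18.2% against 4.59% of all genes) were positive, among them Calb2, or calretinin (0.54, SE 0.17), and Slc32a1, the vesicular GABA transporter (0.48, SE 0.16). Of the 22, 1 met the rule for loss (4.55% against 4.22% of all genes) and 3 that for gain (13.6% against 1.56%). The genotypes overlapped for Calb2 under placebo and were apart under anle138b, with APPPS1ΔE9 higher. Pcp4, a calmodulin regulator strong in CA2 neurons, was 46.8 ± 6.3 CPM in WT and 30.9 ± 3.8 CPM in APPPS1ΔE9 mice on placebo and 40.8 ± 5.5 against 41.7 ± 4.9 CPM on anle138b (SD, n = 4 each). Its interaction was 0.63 (SE 0.17), and its placebo genotype effect was past the adjusted threshold (-0.60, SE 0.12; adjusted p = 0.0796, edgeR's quasi-likelihood test).

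Choroid plexus genes had the largest positive median interaction of all lists and no call. The 27 genes tested had a median genotype effect of -1.22 (log2) under placebo and -0.16 under anle138b and a median interaction of 0.97, but 0 reached an unadjusted p under 0.05 in any of the 3. The SD of their mean log2 CPM inside a group was 1.67 to 1.88. Their summed level ranged from 646 to 12430 CPM in WT and from 343 to 10110 CPM in APPPS1ΔE9 mice on placebo, and from 726 to 12520 CPM and from 566 to 11370 CPM on anle138b. Ttr itself had an interaction of 1.18 (SE 2.20), and the water channel gene Aqp1 1.11 (SE 1.79). No mouse had either gene at 0. Without mouse 17 the median of the list was 2.85 and 5 of 27 had a positive unadjusted call.

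How the losses stood to Ttr is described here, and whether choroid plexus content accounted for them was not tested. Ttr also went with mouse number, so a Ttr covariate stands for both. With log2 Ttr as a covariate the choroid plexus median became -0.020, whereas the respiratory subunits had a median of 0.18 with 33 of 78 positive and 0 negative calls, homeostatic astrocyte genes 0.18 with 6 of 22 positive, and plaque-associated microglial genes -0.23 with 4 of 29 negative and 1 positive. In that fit 628 genes met the rule for loss, and 469 of the 735 (63.8%) were among them. In addition, 9.66% of the 735 genes followed Ttr within the groups at an adjusted p under 0.1, 41 upward and 30 downward, against 11.1% of 17403 tested genes. The 735 were chosen in a fit without Ttr, where a gene that follows Ttr within groups is less likely to be called. A low share among them was therefore favored in advance and decides nothing. For the lists the share that followed Ttr was 5.13% of respiratory subunits (4 genes, all upward), 4.55% of homeostatic astrocyte genes (1 of 22) and 100% of 26 choroid plexus genes. Lastly, in mouse 17, the placebo APPPS1ΔE9 mouse with a Ttr level as high as most other mice, Cox8a (210 CPM), Tril (33.5 CPM) and Man2b1 (68.2 CPM) were on the side of the 3 mice with low Ttr. These genes were named for a small interaction p in a fit that held mouse 17. That choice favors genes in which the mice of a group agree, so their side decides nothing about Ttr. Other values of mouse 17 lay nearer to WT mice than those of the 3: Gja1 was at 242 CPM beside 215 to 222, Gabrg1 at 28.7 beside 23.6 to 24.2, C4b at 51.6 beside 72.3 to 107, and the mean of the homeostatic astrocyte genes at 7.57 (log2 CPM) beside 7.42 to 7.49, with 7.61 to 7.69 in the placebo WT mice.

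Other lists did follow Ttr within groups. Of 29 plaque-associated microglial genes 5 rose and 6 fell with Ttr at an adjusted p under 0.1 (edgeR's quasi-likelihood test), of 16 homeostatic microglial genes 7 fell, of 35 presynaptic release genes 20 fell and of 43 collagen genes 13 rose. Over all 17403 tested genes 1250 rose and 677 fell. Leaving out mouse 17, which made the placebo APPPS1ΔE9 group low in Ttr throughout, moved the interaction to 22 genes past the adjusted threshold, 21 of them positive, and with Ttr as a covariate in the same mice to 10, all positive. Among the 10 were Foxj1, Dnah3, Dnali1, Ccdc153 and Nme9, which serve motile cilia, and Otx2, a transcription factor of the choroid plexus.

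Genes of motile cilia, which mark the ependymal cells that line the ventricle and were listed after this result, had the largest shares. Of 22 genes, 14 were lower under placebo at an unadjusted p under 0.05 (7.06% of all genes were), the median interaction was 0.78, 13 (59.1% against 4.59%) had a positive call and 10 (45.5% against 4.22%) met the rule for loss. Since the list was made after some of its members had been seen to pass, these counts are a description. With 1 mouse left out the ependymal cilia genes had 9 to 20 positive calls, most without mouse 17, and 4 to 16 losses. The mean log2 CPM of the list was 2.20 to 2.59 in WT mice and 1.34 to 2.66 in APPPS1ΔE9 mice on placebo, mouse 17 being at 2.66 and the other 3 between 1.34 and 1.58, and it was 2.17 to 2.49 and 2.28 to 2.65 on anle138b. The mice of other groups with low Ttr (77, 83 and 84) were at 2.20, 2.17 and 2.28. Of the 22 genes 11 rose with Ttr within groups at the adjusted threshold (1250 of all 17403 genes did), and with Ttr as a covariate the median was 0.61 and 15 had a positive call. The share of ventricle wall in each sample was not measured otherwise.

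The loss count was smaller with a covariate for the sex signal than with Ttr, and what lowered it was not tested. With the summed level of Y-linked genes as a covariate 498 genes met the rule for loss, of which 338 were among the 735 (46%), and with Ttr as well 322, of which 182 were (24.8%). The respiratory subunits had medians of 0.18 and 0.16 in these fits, with 29 and 25 of 78 positive and 0 negative calls, and 16 and 6 of them met the rule for loss. All APPPS1ΔE9 mice carried the Y-linked signal, and the covariate varied far more among WT mice (0.0801 to 358 CPM) than among them (169 to 359 CPM). The covariate thus went in part with genotype. With it alone, 1517 genes had an unadjusted genotype call under placebo and 1516 under anle138b, beside 2234 and 1140 without it. Without WT mouse 39 the subunits had a median of 0.17 with 33 positive calls, and without mouse 17 0.21 with 37; the lowest counts were 23, without mouse 71 and without mouse 27.

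**Figure D5:**
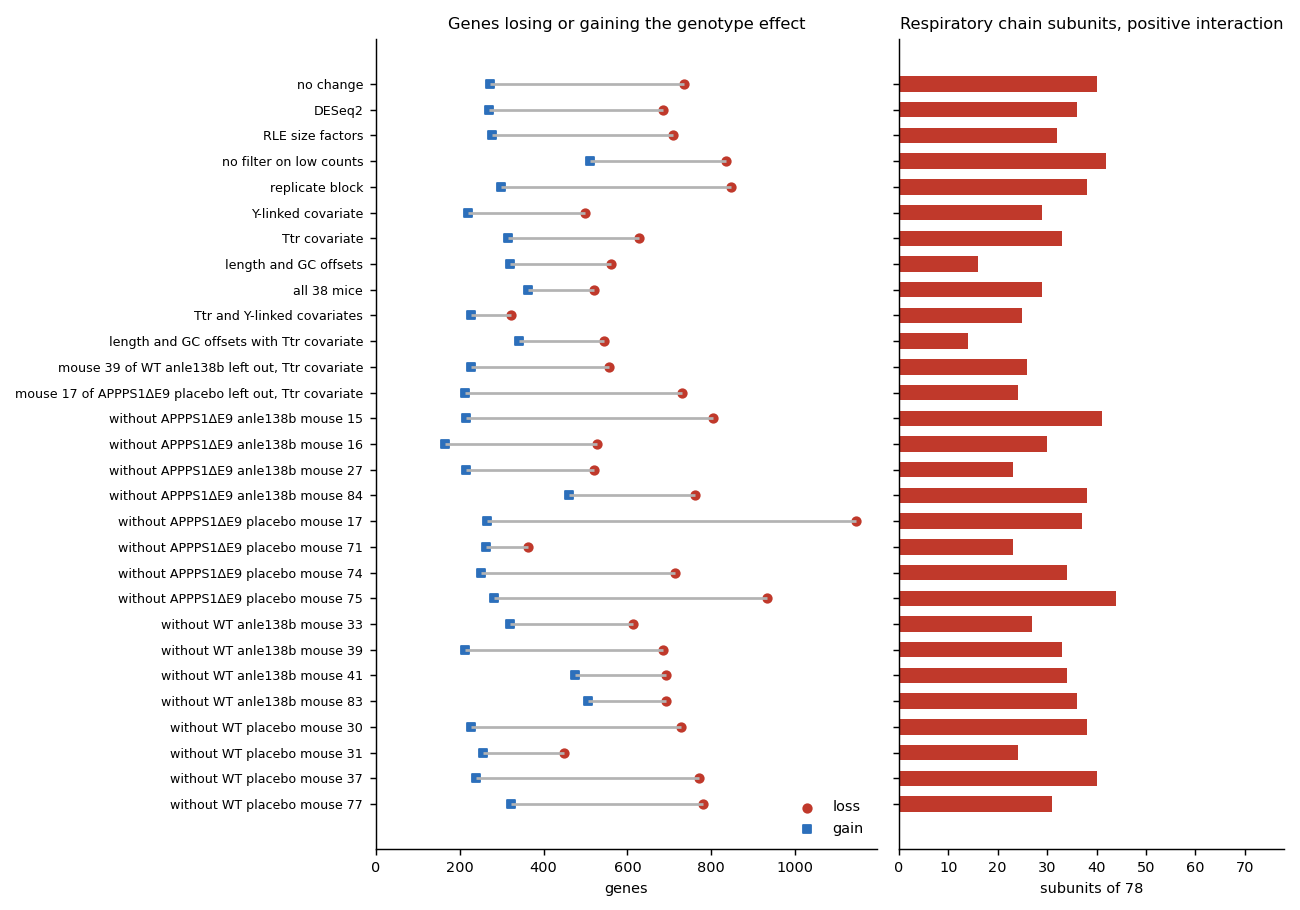
The left panel gives, for each way of fitting (rows), the number of genes on the x axis that lose (circles) or gain (squares) the genotype effect; the right panel gives how many of 78 respiratory subunits have a positive interaction at an unadjusted p under 0.05. The loss count runs from 322 with Ttr and Y-linked covariates to 1146 without mouse 17, above the gain count in every row, and the subunit count from 14 with offsets and Ttr to 44 without mouse 75.

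In the 22 mice of 10 months, where treatment began late, the same contrast gave 0 genes at the adjusted threshold and 407 of 17668 (2.3%) at the unadjusted one with edgeR's quasi-likelihood test, and 2 genes at the adjusted threshold of DESeq2. There 128 genes (0.724%) met the rule for loss and 143 (0.809%) that for gain. The respiratory subunits had a median interaction of -0.12 with 0 positive and 4 negative unadjusted calls (1.15% of all genes had either), homeostatic astrocyte genes -0.057 with 1 negative call and plaque-associated microglial genes 0.11 with none. With 1 mouse left out, the negative calls among the subunits ran from 0, without placebo APPPS1ΔE9 mouse 57, to 12, without placebo APPPS1ΔE9 mouse 100. Choroid plexus genes had a median interaction of 1.78 there with 9 of 25 positive calls, and of 0.55 with 0 of 24 without mouse 99. In a test of the difference between the ages over all 38 mice, 0 of 18232 genes passed the adjusted threshold of edgeR and 1132 (6.21%) the unadjusted one, and DESeq2 called 8. In the respiratory subunits the difference, 6 minus 10 months, had a median of 0.30. There 37 of 78 were higher and 0 lower at the unadjusted threshold (2.74% of all genes were higher). The median difference was 0.23 in homeostatic astrocyte genes with 4 of 22 higher. It was -0.43 in plaque-associated microglial genes with 3 genes lower (3.47% of all genes were lower). Ttr at 10 months was between 12.9 and 242 CPM in 21 mice and at 4110 CPM in mouse 99, an APPPS1ΔE9 mouse on anle138b.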

How the data were processed

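RNA of whole hippocampus, extracted with TRIZOL, was sequenced from 38 mice after TruSeq library preparation. Per the study's methods, the authors aligned reads to mm10 with STAR and counted them per gene with HTSeq, and they deposited raw read counts of 48709 genes for each mouse, with no normalization and replicates kept apart; the annotation release and strandedness were not given in the sources used here. Groups came from the sample titles. Symbols and coordinates were taken from GENCODE M21 on GRCm38, which matched 48349 genes.

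Counts of the 16 mice at 6 months were filtered with filterByExpr of edgeR 4.0.16 (minimum count 10, minimum total 15), scaled by TMM and fitted once over the 4 groups with edgeR's robust quasi-likelihood test in R 4.3.3. Interaction and simple effects were contrasts of that fit, with Benjamini-Hochberg adjustment over all 17404 genes and a threshold of 0.1; an SE is the log2 fold change over the square root of the F value. The study's own test, DESeq2 (1.42.0), was an alternative, as were RLE factors, no filter, the replicate number as a block, Ttr or Y-linked covariates, length and GC offsets (loess span 0.5), all 38 mice, and leaving out each mouse. A list's level is its mean log2 CPM (prior count 2), and lists are described by counts and medians without a test. Slopes on Ttr came from a fit with group and log2 Ttr. The fits were tested on simulated counts. Same-group libraries differed by more than counting noise (chi-square per degree of freedom 4.72 to 38.2 over 24 pairs).

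The members and the gene lists were chosen with earlier results of these data known, and the lists of cilia and cell cycle genes after the interaction had been seen. Named genes were the 10 with the smallest interaction p on each side at a mean of at least 1 CPM, the genotype check, choroid plexus genes and up to 4 per list with the smallest interaction p; others named were chosen after their values were seen. Upstream sequences came from RefSeq (GRCm38.p6). Some items are not reported here.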

Additional observations from a re-analysis of the deposited data

Results flagged for a closer look

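Of 272 sets of 4 mice (1 gene or list in 1 group), 23 held a mouse farther from the others than Dixon's 95% critical value, or 8.46%; chance flags about 1 in 20. WT mouse 39 on anle138b accounted for 5 of them: App (1650 CPM) and Slc1a3 (667 CPM) were lowest there, and Lamr1-ps1 (0.0571 CPM), cytosolic ribosomal proteins (4.13, mean log2 CPM) and cell cycle genes (3.13) highest. The Lamr1-ps1 value lies at the floor. The other WT mice on anle138b were at 0 CPM, where any level above 0 in 1 mouse is flagged.

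Others were in genes of the choroid plexus and of cilia. Ttr (6250 CPM) and Aqp1 (33.9 CPM) were high in placebo APPPS1ΔE9 mouse 17. Ttr (207 CPM), Aqp1 (1.61 CPM) and the choroid plexus list (2.36) were low in WT mouse 83, and that list was low in APPPS1ΔE9 mouse 84 (2.01), both on anle138b. Cilia genes were low in placebo WT mouse 77 (2.20).

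The remaining values were spread over several mice. In placebo APPPS1ΔE9 mice, the astrocyte receptor gene Gabrg1 (28.7 CPM) was high in mouse 17, Uqcr10 (78.5 CPM) and Lamr1-ps1 (11.4 CPM) were low in mouse 71, Gmeb1 (28.9 CPM) was high in mouse 74, and Prnp (2920 CPM), Cd52 (2.93 CPM) and plaque-associated microglial genes (4.76) were high in mouse 75. In APPPS1ΔE9 mice on anle138b, Lamr1-ps1 (10.8 CPM) was low in mouse 27, Cacna1d (53.5 CPM) low in mouse 16 and Ccl6 (2.79 CPM) high in mouse 84. Mpeg1 was highest in placebo WT mouse 37 (33.9 CPM), within a narrow group.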

How the results depend on the processing

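With 4 mice a group, no interaction call at the adjusted threshold came from edgeR on all mice, and the results rest on lists of unadjusted calls. Lane, and in part sex signal and choroid plexus content, go with the groups. Over all alternatives, 1499 values of single genes stayed on their side of the threshold and kept their direction, 106 kept their direction but missed the unadjusted threshold, and 14 changed sign. Of the list medians, 1139 moved by less than the spread between mice and 37 by more. That spread is the SD of a list's level within groups, which was 1.67 to 1.88 for choroid plexus genes. Their change of sign with Ttr as a covariate therefore counts as a move by less. The cause of the shifts below was not tested. The covariate pairs, and leaving out a mouse with a covariate or at other ages and contrasts, were chosen after seeing the data.

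Genes past the adjusted interaction threshold numbered 22 with DESeq2, 0 to 22 with 1 mouse left out (22 without mouse 17 and 1, Gm44542, without mouse 16) and 10 without mouse 17 with Ttr as a covariate. Unadjusted calls ranged from 903 to 1809 with 1 mouse left out. Losses were 322 with Ttr and Y-linked covariates and 362 to 1146 with 1 mouse left out; gains were 510 without the filter and 164 to 505 with 1 mouse left out. Calls of the placebo genotype effect were 404 with DESeq2, 12 with only the 8 mice compared and 7 to 454 with 1 mouse left out (454 without mouse 17, 7 without WT mouse 31). Those of the anle138b genotype effect were 27 with DESeq2 and 4 to 12, those of anle138b in WT mice 2 with DESeq2 and 0 in each fit with 1 mouse left out, and those of anle138b in APPPS1ΔE9 mice 339 with DESeq2, 9 with only the 8 mice compared and 3 to 332 (332 without mouse 17). At 10 months DESeq2 called 2 genes, and for the difference between ages 8; leaving out 1 mouse gave 0 and 0 to 6.

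With length and GC offsets, without and with Ttr, medians were 0.0957 and 0.103 for respiratory subunits, 0.0284 and 0.0211 for cytosolic and 0.0551 and 0.045 for mitochondrial ribosomal proteins. With 1 mouse left out, they ran from 0.138 to 0.207 for respiratory subunits, 0.0905 to 0.157 for cytosolic and 0.0756 to 0.133 for mitochondrial ribosomal proteins, 0.14 to 0.206 for homeostatic astrocyte genes, -0.333 to -0.16 for plaque-associated microglial genes, -0.378 to -0.2 for reactive astrocyte genes and 0.543 to 2.85 for choroid plexus genes. Prnp, near 0 at -0.0069, was 0.0015 without the filter, 0.047 with Ttr, 0.039 with Ttr and Y-linked genes, 0.015 with offsets and Ttr, 0.022 without mouse 39 with Ttr, 0.081 without mouse 17 with Ttr and -0.063 to 0.050 with 1 mouse left out. Aqp1 was -0.0066 with Ttr and -0.053 with offsets and Ttr, and Lamr1-ps1 -2.05 to 0.013, the latter without mouse 39.

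The replicate numbers were not taken as pairs (24 correlations of deviations between same-numbered mice of different groups, mean 0.13, from -0.297 to 0.608), although number 4 was low in Ttr in all 4 groups (123 to 207 CPM) and number 1 high (3710 to 7460 CPM). With the replicate number as a block the interaction had 0 genes at the adjusted threshold and 1559 at the unadjusted one, with 846 losses and 299 gains, anle138b in APPPS1ΔE9 mice had 6 calls and the difference between ages 16.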

Other observations

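Reactive astrocyte genes had the largest negative median interaction of the lists other than cell cycle genes (-0.32 over 25 genes). Under placebo 8 were higher in APPPS1ΔE9 mice at an unadjusted p under 0.05 (5.78% of all genes were), and under anle138b 5 were lower (3.05% of all genes were) and 0 higher. These counts include WT mouse 39. Without it, the median was -0.21 and 1 gene had a negative interaction call beside 3 with it (C4b, Clcf1 and Timp1). In mouse 39 Clcf1 was at 3.77 and Timp1 at 4.79 CPM. The other WT mice on anle138b were at 1.2 to 1.62 and 0.394 to 0.624 CPM. Cell cycle genes, added later, had a median of -1.05 over 14 genes with that mouse and of 0.025 without it.

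Several lists of brain regions outside the hippocampus had positive medians with few calls: thalamic and habenular genes 0.30 with 1 of 17 positive (Zic1), and striatal genes 0.47 with 1 of 11 (Gpr6), where 4.59% of all genes were positive. The median of thalamic and habenular genes was 0.083, 0.15 and 0.15 without mice 37, 83 and 75 and 0.51 and 0.60 without mice 74 and 33, and that of striatal genes 0.26, 0.30 and 0.30 without mice 41, 83 and 15. Cholesterol synthesis genes had a median of 0.070 with 3 of 23 positive, among them Cyp51 at 0.25 (SE 0.08). Of 21 Ah receptor and NRF2 targets 1 was positive, the glutathione transferase Gstm5, at 0.35 (SE 0.10). Of 20 glucocorticoid-responsive genes 1 was positive and 1 negative, Sgk1, at -0.28 (SE 0.12). Among 43 collagen genes 3 were positive and 1 negative, Col6a1, which was at 73.6, 97.8, 59.1 and 135 CPM in placebo APPPS1ΔE9 mice and at 34.8 to 60.7 CPM in the other 12.

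Subunits of the proteasome (median 0.0025 over 42 genes), dentate granule cell genes (-0.0078 over 16) and mural and leptomeningeal genes (0.0085 over 23) had medians near that of all genes.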
